A study of Mus musculus with 14 samples.

Results

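The genes described here are collagens, the proteins that bind and cross-link them, other matrix and stromal genes, and transcription factors of mesenchyme. The list holds 42 genes, chosen by symbol from known function in meninges, mesenchyme and extracellular matrix. The choice was made with earlier results of these data known. Setting these genes beside all probe sets is therefore a description and no independent test. Of these, 41 had a probe set on the array and Fbn1, which encodes the microfibril protein fibrillin, had none, out of 12393 genes that the annotation names. These 41 genes had 76 probe sets, and each gene is represented by its probe set with the highest mean log2 intensity.

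RNA came from brains of mice heterozygous for T9H, a reciprocal translocation between chromosomes 7 and 15 that every group carried. MatDp7 mice had the proximal part of chromosome 7 duplicated from the mother and that of chromosome 15 duplicated from the father, and PatDp7 mice had the reverse. Neonatal cortex, neonatal cerebellum and brain at 15.5 days post coitum (dpc) had 2 arrays per duplication. Brain at 13.5 dpc had 1 array per duplication, 14 arrays in all. The embryonic labels say brain and do not say how it was dissected. No group without a duplication was analysed here, so every value is from a brain that carries one. The labels call the replicates biological but name no animals or pools, so p-values measure the spread between these samples.

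As background, the meninges are layers of fibroblast-rich tissue around the brain, derived from mesoderm and neural crest. Their cells, with the cells around vessels, make most of the fibrillar collagen, decorin and lumican found in brain tissue, whereas neurons make little. Beneath them the pial basement membrane, built on collagen IV, nidogen and laminin, covers the brain surface. Twist, Prrx and Fox factors mark embryonic mesenchyme, and Foxc1 is needed for the meninges to form over the forebrain. These arrays read bulk tissue, in which fewer cells of a type and less RNA per cell cannot be told apart.

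Promoter sequences are shown for the 4 genes with the lowest log2 difference between 15.5 and 13.5 dpc that were called, among the 30 of 42 genes with an entry in the RefSeq promoter table (GRCm38.p6). Each sequence is the 250 bases before the annotated start of transcription, 5′ to 3′ on the gene's own strand, with the first entry taken for Postn, which has 2. Capitals mark every match on either strand to any of 4 motifs. The TATA box was searched for as TATAAA. The CCAAT box was searched for by the letters of its name. For the GC box the letters were GGGCGG. For the E-box, which Twist proteins bind, they were CANNTG, which read the same on both strands. Different motifs did not overlap in these 4 sequences, and neighbouring GC boxes can touch.
Twist1, chr12:33957421-33957670, plus strand: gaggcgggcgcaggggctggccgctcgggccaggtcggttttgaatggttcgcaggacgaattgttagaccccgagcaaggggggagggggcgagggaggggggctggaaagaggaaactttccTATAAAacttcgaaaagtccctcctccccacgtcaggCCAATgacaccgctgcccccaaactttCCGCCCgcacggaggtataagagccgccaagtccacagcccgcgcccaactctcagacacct
Cxcl14, chr13:56296552-56296801, minus strand: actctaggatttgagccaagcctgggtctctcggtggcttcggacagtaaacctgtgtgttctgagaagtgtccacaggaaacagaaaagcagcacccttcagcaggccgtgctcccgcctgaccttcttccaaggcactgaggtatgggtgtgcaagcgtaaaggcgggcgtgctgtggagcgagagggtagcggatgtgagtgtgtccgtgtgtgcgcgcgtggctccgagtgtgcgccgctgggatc
Twist2, chr1:91801211-91801460, plus strand: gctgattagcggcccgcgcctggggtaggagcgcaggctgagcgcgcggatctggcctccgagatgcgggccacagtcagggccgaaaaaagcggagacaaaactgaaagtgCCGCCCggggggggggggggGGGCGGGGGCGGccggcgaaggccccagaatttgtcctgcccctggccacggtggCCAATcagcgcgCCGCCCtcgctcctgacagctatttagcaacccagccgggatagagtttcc
Postn, chr3:54359017-54359266, plus strand: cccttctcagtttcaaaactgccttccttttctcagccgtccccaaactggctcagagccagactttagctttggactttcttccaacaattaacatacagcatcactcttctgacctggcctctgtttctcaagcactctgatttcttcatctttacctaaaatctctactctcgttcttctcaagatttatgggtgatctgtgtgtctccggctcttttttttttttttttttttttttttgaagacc

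These 4 sequences differed in the letters searched. Twist1 held 1 TATA box, 1 CCAAT box and 1 GC box. Twist2 held 1 CCAAT box and 4 GC boxes, and the sequences of Cxcl14 and Postn shown here held no match. The other Postn entry, not printed, held a TATA box whose first base lay 26 bases before its start. G and C made up 68.8% of the Twist2 sequence and 40.4% of the Postn sequence. An E-box was in 12 of the 36 windows of the listed genes (33.3%), against 66.2% of 32851 windows of all genes. A GC box was in 20 of 36 (55.6%), against 32.7% of all. A TATA box was in 5 of 36 (13.9%, against 12.4%) and a CCAAT box in 13 of 36 (36.1%, against 33.8%). The median share of G and C was 60.8% in the 36 windows and 52.4% in all windows. These shares describe letters in a window and were not tested.

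Before the results, the arrays need a description. The deposited intensities had been scaled by the authors to 1 level, with a trimmed mean of 500.13 to 500.15 per array. Replicate 1 arrays of both neonatal tissues were unlike the rest: their brightest probe set read 43099 to 61172, while that of the other 10 arrays read 17662 to 25858. Replicate 1 arrays of the replicated tissues had Xist, the transcript of the inactive X chromosome, at 198 to 437 and the Y-linked Uty at 174 to 319. Replicate 2 arrays had Xist at 2882 to 5323 and the 13.5 dpc arrays at 4374 and 5760, with Uty at 23.5 to 58.8 on both sets. Sex is not among the labels. The PatDp7 replicate 1 array of the cerebellum was the lowest of its tissue for 29 of the 41 genes. On it Ptgds, a prostaglandin D synthase made abundantly in the meninges, read 202 against 8985 to 10297 on the other 3 cerebellum arrays. At 15.5 dpc, PatDp7 replicate 2 was the highest array for 28 of 41 genes and MatDp7 replicate 1 the lowest for 21. The ratio of 3′ to 5′ actin control signal was 0.970 to 1.11 on all arrays but 15.5 dpc MatDp7 replicate 2, where it was 1.45.

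The labelled tissues carried their own markers. The summed intensity of 5 cortex markers was 6320 to 8379 in neonatal cortex and 468 to 735 in cerebellum, and that of 10 cerebellum markers was 5150 to 6395 in cerebellum and 1999 to 2249 in cortex. The 10 neuron markers summed to 29926 to 34167 at 15.5 dpc and to 12049 and 15250 at 13.5 dpc. On the 2 arrays labelled 13.5 dpc brain, markers of tissues outside the brain were also high. The 13 skeletal muscle markers summed to 10167 and 11700 there, against 780 to 1512 on the other 12 arrays, and 12 of 13 had both 13.5 dpc arrays above all others. The 9 epidermal markers summed to 7795 and 10266, against 575 to 993, with 8 of 9 above all others. The 8 blood markers summed to 30220 and 35529 at 13.5 dpc, 3307 to 8514 at 15.5 dpc and 574 to 1712 in neonatal tissue, and 5 of 8 had both 13.5 dpc arrays above all others.

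The study's series of ages allows the question of how the matrix genes differ between early and later brain. Between 13.5 and 15.5 dpc the matrix and mesenchyme genes were lower as a body at the later age. All 41 measured genes had a negative log2 difference, against 57.9% of all probe sets, with a median of -1.59 against -0.05 over all probe sets. The largest were in the mesenchymal transcription factors Twist1 (-3.54) and Twist2 (-3.07), the matrix-bound calcium-binding protein Smoc2 (-3.40) and the chemokine Cxcl14 (-3.09). Foxc1 (-0.33), Foxc2 (-0.35) and the collagen IV genes Col4a1 (-0.42) and Col4a2 (-0.41) had the smallest. Differences are of log2(intensity + 52.0273), a scale that understates the change of dim probe sets.

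In the fit of limma on all 22626 probe sets, 24 of the 41 genes were called lower at 15.5 dpc (Benjamini-Hochberg adjusted p under 0.05), against 3.39% of all probe sets. After a filter on mean intensity (at least 157), 36 genes were left, of which 20 were called lower and none higher by limma, against 2.75% lower and 2.28% higher of the 13576 probe sets tested. At an unadjusted p under 0.05, 28 of the 36 were lower, a count with no share of all probe sets beside it. Smoc2, Foxd1, Prrx1 and Cd248 passed the filter only because of their level at 13.5 dpc. Of the 32 genes that passed without those arrays, 18 were called lower, against 2.41% of the probe sets that passed in the same way. The 35 other probe sets of 24 of these genes were all lower at 15.5 dpc, and 22 of the 35 were called in the fit on all probe sets.

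The order of the arrays needs no fit. Both 13.5 dpc arrays lay above all 4 arrays of 15.5 dpc for 39 of 41 genes, against 23.8% of the 12393 genes. Col4a1 and Col4a2 were the exceptions. For 37 of 41 both lay above each of the other 12 arrays, against 13.7% of all genes, and here Sparc and Foxc2 were further exceptions. The summed intensity of the 41 probe sets was 112022 and 112497 at 13.5 dpc, 34101 to 46860 at 15.5 dpc, 22815 to 45540 in neonatal cortex and 25396 to 43589 in neonatal cerebellum.

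**Figure D1:**
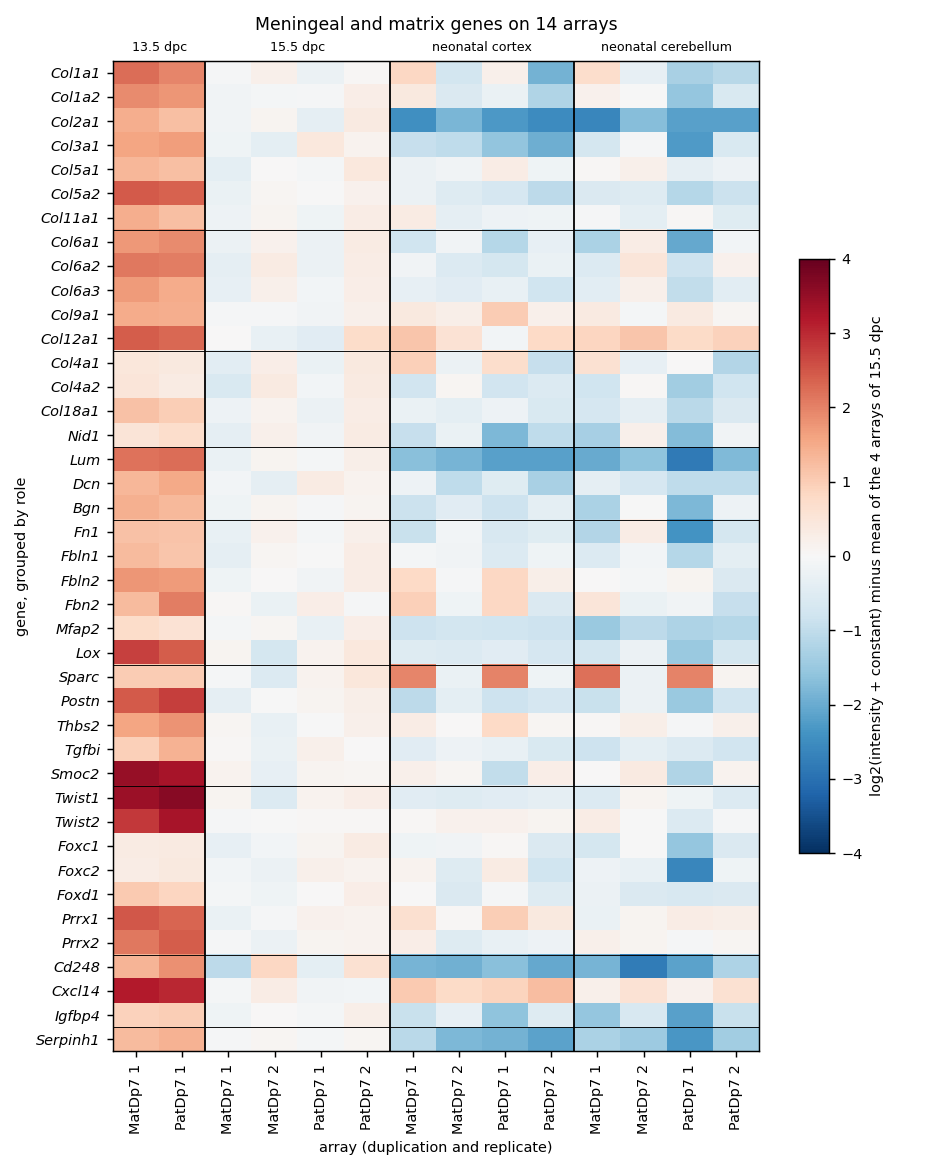
Each row is 1 gene and each column 1 array, and colour is log2(intensity + constant) minus the mean of the 4 arrays of 15.5 dpc brain, with black lines between roles and tissues. The 2 columns of 13.5 dpc are red in nearly all 41 rows, while Foxc1, Foxc2, Col4a1 and Col4a2 are pale there.

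The fibrillar collagens, which form the tensile fibres of connective tissue, had differences of -2.40 to -1.26. Of the 6 that passed the filter, 4 were called lower. Col5a2, whose collagen V nucleates collagen I fibrils, read 3608 and 3361 at 13.5 dpc and 508, 658, 619 and 708 at 15.5 dpc. The groups were far apart, and the fall was 5.27-fold (log2 -2.40 ± 0.194 SE, limma adjusted p = 0.000781). Col1a2, a chain of collagen I, read 11333 and 10430 and then 2738 to 3651, a log2 difference of -1.83 ± 0.369 (adjusted p = 0.0269). Its partner chain Col1a1 read 5954 and 4830 and then 1034 to 1420. These groups did not overlap either, but at -2.09 ± 0.592 (adjusted p = 0.0809) Col1a1 missed the threshold. Its dimmer probe set was called lower in the fit on all probe sets (-2.51, limma adjusted p = 0.00203). Col3a1, the collagen of elastic and vessel-rich tissue, also missed the threshold at -1.63 ± 0.406 (adjusted p = 0.0549), with 8625 and 9311 against 2163 to 3873. The dimmer Col3a1 probe set was called lower in the fit on all probe sets (-2.28, adjusted p = 0.0166). Col5a1 (-1.26) and Col11a1 (-1.33) were called lower. Col2a1, the cartilage collagen, lay below the filter and read 1135 and 954 against 291 to 514 (-1.32, adjusted p = 0.0519 in the fit on all probe sets).

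Collagen VI forms beaded microfibrils around cells. Col6a2 read 3697 and 3599 at 13.5 dpc and 630 to 1038 at 15.5 dpc, a log2 difference of -2.08 ± 0.386 (adjusted p = 0.0200). Col6a3 followed at -1.60 ± 0.279 (adjusted p = 0.0156). Col6a1 read 1944 and 2157 against 449 to 695 and was not called (-1.82 ± 0.577, adjusted p = 0.114). Its neonatal cerebellum arrays, which enter the same estimate of spread, ran from 92.7 to 674. The fibril-associated Col9a1 was called lower (-1.48), as was Col12a1 in the fit on all probe sets (-2.35, adjusted p = 0.00756).

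Basement membrane genes had the smallest median difference of the roles, at -0.51. Of 4 tested, Col18a1, the source of endostatin, was called lower at -1.07 ± 0.242 (adjusted p = 0.0400), from 1192 and 1040 to between 424 and 633. That call ended in 10 of 14 fits with 1 array left out. The dimmer Col18a1 probe set stood at -0.74 and was not called (limma adjusted p = 0.331 in the fit on all probe sets). Col4a1 read 2194 and 2095 at 13.5 dpc and 1182, 1921, 1321 and 2098 at 15.5 dpc, so the ages overlapped. Nid1, nidogen, which links laminin to collagen IV, read 1170 and 1342 against 615 to 1022 (-0.60 ± 0.535, adjusted p = 0.655).

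The small leucine-rich proteoglycans regulate fibril width. Lum, lumican, read 4544 and 4682 at 13.5 dpc and 786, 1048, 906 and 1141 at 15.5 dpc. That is 4.60-fold (log2 -2.20 ± 0.288, adjusted p = 0.00641). Dcn, decorin, fell by 1.42 on the log2 scale (adjusted p = 0.0270). Bgn, biglycan, read 3443 and 3152 against 1104 to 1369 but was not called (-1.35 ± 0.456, adjusted p = 0.138). Another Bgn probe set was called lower in the fit on all probe sets (-2.09, adjusted p = 0.0352), and a further one was not.

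Among glycoproteins and elastic fibre genes, Lox, the lysyl oxidase that cross-links collagen and elastin, read 4111 and 3326 and then 629, 338, 646 and 797. Its log2 difference was -2.57 ± 0.298 (adjusted p = 0.00412). Fbln1 (-1.18) and Fbln2 (-1.74), fibulins that bind elastic fibres and basement membranes, were called lower. With 1 array left out, the Fbln1 call ended in 10 of 14 fits and the Fbln2 call in 4 of 14. Fn1, fibronectin, read 4004 and 3979 against 1431 to 2024 and was not called (-1.15 ± 0.517, adjusted p = 0.271). Fbn2, the fibrillin of embryonic tissue, and Mfap2, a microfibril protein, were not called either (adjusted p = 0.0743 and 0.121).

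Matricellular proteins bind matrix and cell receptors without building fibres. Postn, periostin, read 2808 and 3466 at 13.5 dpc and 355, 467, 515 and 559 at 15.5 dpc. The difference was 6.10-fold (log2 -2.61 ± 0.283, adjusted p = 0.00338). Smoc2 read 1846 and 1622 and then 134, 83.7, 132 and 126 (-3.40 ± 0.420, adjusted p = 0.00509). Tgfbi, a matrix protein induced by TGF-beta, was called lower (-1.17), and Thbs2, a thrombospondin, was called in the fit on all probe sets (-1.68, adjusted p = 0.00644). Sparc, osteonectin, read 9077 and 9021 against 3035 to 6041 at 15.5 dpc (-1.02 ± 0.902, adjusted p = 0.652).

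Transcription factors fell into those with large and those with small differences. Twist2 read 1510 and 2131 at 13.5 dpc and 159, 166, 174 and 174 at 15.5 dpc. The 4 later arrays were nearly equal, and the fall was 8.39-fold (-3.07 ± 0.193, adjusted p = 0.000325). Twist1, its close relative, read 916 and 1087 and then 46.0, 10.5, 48.3 and 57.0. The later level of Twist1 was near or under the added constant, so the size of its log2 difference (-3.54, adjusted p = 5.70e-05 in the fit on all probe sets) is set in part by that constant. Prrx1, a homeobox gene of limb and head mesenchyme, read 836 and 743 against 79.6 to 123 (-2.42 ± 0.244, adjusted p = 0.00229). Its relative Prrx2 was called in the fit on all probe sets (-2.27). Foxc1 read 664 and 676 against 408, 481, 561 and 662, and Foxc2 read 475 and 506 against 310 to 437. Neither was called (adjusted p = 0.671 and 0.849). Foxd1, a marker of stromal progenitors, stood at -0.96 ± 0.233 (adjusted p = 0.0507).

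Of the secreted and surface genes, Cxcl14 read 1929 and 1737 at 13.5 dpc and 159, 221, 150 and 154 at 15.5 dpc (8.50-fold, -3.09 ± 0.213, adjusted p = 0.000351). Cd248, endosialin of pericytes and fibroblasts, varied widely at 15.5 dpc (158, 714, 276 and 598) against 1058 and 1462 and was not called (adjusted p = 0.130). Igfbp4, which binds insulin-like growth factors, read 7354 and 7718 against 3422 to 4587 (adjusted p = 0.288). Another Igfbp4 probe set was called lower in the fit on all probe sets (-1.38, adjusted p = 0.0173), and the rest were not. Serpinh1, the chaperone that folds procollagen, read 5591 and 6069 against 2156 to 2408 and was called (-1.33 ± 0.292, adjusted p = 0.0363). With 1 array left out, the Serpinh1 call ended in 8 of 14 fits. Its other probe set stood at -0.85 and was not called (limma adjusted p = 0.198 in the fit on all probe sets).

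**Figure D2:**
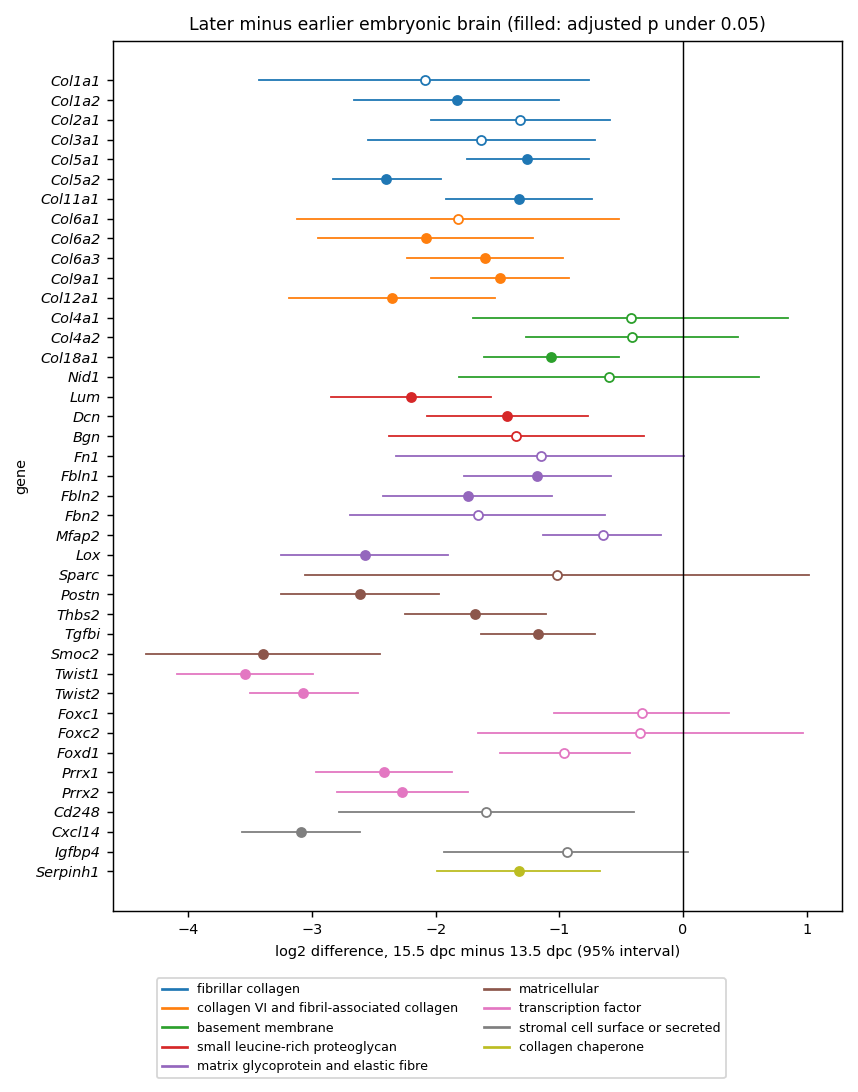
Each point is the log2 difference of 1 gene, 15.5 dpc minus 13.5 dpc, with its 95% interval from limma, coloured by role; filled points had an adjusted p under 0.05, and the 5 genes under the filter come from the fit on all probe sets. All 41 points lie left of 0, from -3.54 for Twist1 to -0.33 for Foxc1.

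These calls rest on 2 arrays at 13.5 dpc, which are assumed to vary like the other groups. Without 1 of them the comparison was made within the other duplication, 2 arrays of 15.5 dpc against 1 of 13.5 dpc. The median over 41 genes was then -1.42 in PatDp7 and -1.53 in MatDp7, with 41 of 41 lower in each. The direction held, but calls such as those of Lum, Smoc2 and Col6a2 ended without either 13.5 dpc array. Counts of calls are not given there, since only 1 array was left at 13.5 dpc. Leaving out 15.5 dpc MatDp7 replicate 1, MatDp7 replicate 2 or PatDp7 replicate 1 left 13, 11 or 8 genes called. The share of all probe sets called is not given for these fits. When the 8 neonatal arrays were blocked by replicate number, 31 of 36 were called lower, against 9.05% of all probe sets tested. Col1a1, Col3a1, Col6a1, Bgn, Fn1, Fbn2, Mfap2, Sparc, Foxd1, Cd248 and Igfbp4 were called only with that block. Col4a1, Col4a2, Nid1, Foxc1 and Foxc2 were called in neither fit. Beside the matrix genes, Tnni1, a slow muscle troponin, read 753 and 793 at 13.5 dpc against 7.92 to 29.7 elsewhere. Krt15, a keratin of basal epidermis, read 1651 and 2039 against 10.6 to 20.8. The 11 pericyte and smooth muscle markers were mixed. Their median was -0.31, 4 of 11 had both 13.5 dpc arrays above all others, and 2 of 5 tested, Acta2 and Pdgfrb, were called lower at 15.5 dpc. The part of muscle, skin, blood or other tissue in the matrix result was not tested.

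Other genes of the matrix pathway came from lists chosen by function, and their counts stand beside the 2.75% of all probe sets tested that were called lower and the 2.28% called higher. Of 16 measured genes for collagen synthesis and processing, all 16 were lower at 15.5 dpc (median -0.63), against 57.9% of all probe sets, and 1 of 14 tested was called. That gene, Crtap, part of the collagen prolyl 3-hydroxylation complex, read 1546 and 1844 against 511 to 795 (-1.39 ± 0.229, adjusted p = 0.0128). Among 15 proteases and inhibitors, 1 of 11 tested was called lower and 1 higher. The gelatinase Mmp2 read 1611 and 1990 against 368 to 541 (-1.93 ± 0.216, adjusted p = 0.00375). Of 21 matrix receptors, 1 of 14 tested, the heparan sulphate proteoglycan Sdc1, was called lower (-1.80 ± 0.168). Laminins and other basement membrane genes had 1 of 10 called, Lamb1 (-1.25), with a median of -0.31 over 16. TGF-beta signalling had 1 of 14 called, Tgfbr2 (-1.44), with a median of -0.65 over 16. Genes of the neural matrix had a median of 0.87 over 13, with 2 of 10 called higher and 1, Vcan (-1.36), called lower.

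Further meningeal markers had no common direction. Over 20 measured their median difference was -0.01, with 10 of 20 lower, and 1 of 14 tested, Bmp4 (-0.97 ± 0.226, adjusted p = 0.0438), was called lower. Ptgds read 1358 and 1366 at 13.5 dpc and 5077 to 6956 at 15.5 dpc (2.06 ± 1.10, adjusted p = 0.368). Crabp2, of the same list, went the other way, with 1784 and 1692 and then 419 to 491 (-1.81 ± 0.591, limma adjusted p = 0.125). Endothelial markers had a median of -0.37 over 15 and 1 of 12 called lower. Neuron markers had 5 of 10 called higher.

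**Figure D3:**
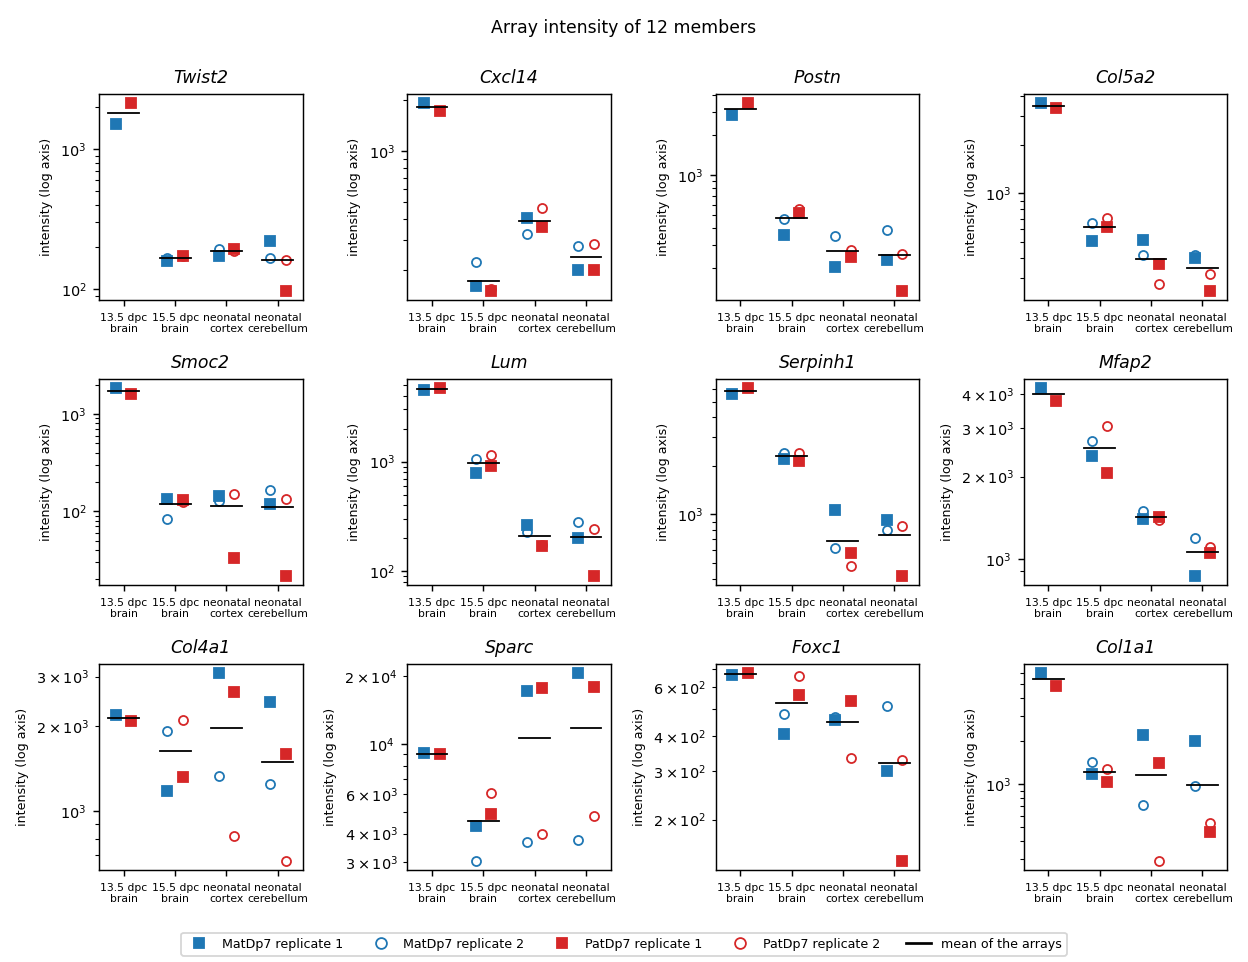
Array intensity on a log axis for 12 genes, by tissue and age; blue is MatDp7 and red PatDp7, filled squares are replicate 1 and open circles replicate 2, and black bars are means over the arrays of a tissue. Twist2, Smoc2 and Cxcl14 drop between 13.5 and 15.5 dpc and then stay low or rise, Lum and Serpinh1 also drop after 15.5 dpc, and Sparc separates by replicate number in neonatal tissue.

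Neonatal cortex was next set against 15.5 dpc brain, with the caution that age and brain part differ together. The chaperone Serpinh1, the proteoglycan Lum, the microfibril gene Mfap2, Cd248 and Col3a1 were lower in neonatal cortex, and Cxcl14 was higher. Of the 36 genes tested, limma called 5 lower, against 3.76% of all probe sets tested, and 1 higher, against 1.87%. The median over 41 genes was -0.39, against 0.08 over all probe sets. Neonatal cerebellum gave 5 calls, all lower (Serpinh1, Lum, Mfap2, Cd248 and Col5a2), against 4.63%, with a median of -0.54 against 0.02. Both comparisons share the 15.5 dpc arrays, so their likeness is no independent result. Markers of other cells were lower too. Of 4 blood markers tested, 3 were called lower in each tissue (medians over 8 of -0.99 in cortex and -0.90 in cerebellum). Of 5 choroid plexus markers tested, 2 were called lower in cortex and 3 in cerebellum. The further meningeal markers had 16 and 17 of 20 lower by sign, against 40.9% and 47.2% of all probe sets, with 0 and 2 of 14 tested called. The part of these cells in the matrix result was not tested.

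Lum read 786 to 1141 at 15.5 dpc, 263, 227, 171 and 174 in neonatal cortex, and 199, 283, 90.8 and 243 in cerebellum. All 8 neonatal arrays lay below all 15.5 dpc arrays, with a log2 difference of -1.97 ± 0.235 in cortex (limma adjusted p = 0.00948) and -2.05 ± 0.235 in cerebellum (adjusted p = 0.00411). Serpinh1 read 2156 to 2408 at 15.5 dpc, 1061, 619, 573 and 479 in cortex, and 927, 799, 417 and 846 in cerebellum. It was 3.32-fold lower in cortex (adjusted p = 0.0118) and 3.04-fold lower in cerebellum (adjusted p = 0.00890). Its second probe set stood at -0.72 and -0.95 and was called in neither. Mfap2 read 2066 to 3054 at 15.5 dpc, 1386 to 1491 in cortex and 868 to 1195 in cerebellum. Its differences were -0.80 ± 0.172 (adjusted p = 0.0344) and -1.23 ± 0.172 (adjusted p = 0.00768). With 1 array left out, the Mfap2 call ended in 7 of 12 fits for cortex and 0 of 12 for cerebellum.

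Cd248 fell to near the added constant in neonatal tissue, with 51.6 to 83.7 in cortex and 10.5 to 131 in cerebellum (adjusted p = 0.0416 and 0.0297). With 1 array left out, the Cd248 call ended in 10 of 12 fits for cortex and 6 of 12 for cerebellum. Col3a1 read 1492, 1398, 922 and 701 in cortex, below the 2163 to 3873 of 15.5 dpc, and was called there (-1.36 ± 0.332, adjusted p = 0.0484). Omitting single arrays, 12 in turn, removed that call 10 times. In cerebellum it read 1724, 2758, 553 and 1869, which overlapped 15.5 dpc, and was not called (adjusted p = 0.128). Col5a2 was called in cerebellum (-0.77 ± 0.158, adjusted p = 0.0258) and not in cortex (-0.61 ± 0.158, adjusted p = 0.0560). Between the tissues, cortex minus cerebellum, it differed by 0.16 ± 0.158 and was not called (limma adjusted p = 0.902). Its cerebellum call ended in 7 of 12 fits with 1 array left out. Cxcl14 read 403, 325, 359 and 464 in cortex, all above the 150 to 221 of 15.5 dpc, and was called higher (0.98 ± 0.174, adjusted p = 0.0228). That call ended in 5 of 12 fits with 1 array left out. The other Cxcl14 probe set stood at 0.39 and was not called (adjusted p = 0.468 in the fit on all probe sets). Col2a1, below the filter, read 291 to 514 at 15.5 dpc and 19.5 to 82.3 in neonatal tissue. Most of those later values lie under the added constant, and the fit on all probe sets called it lower in both (adjusted p = 0.00770 and 0.00542).

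All 4 arrays of 15.5 dpc lay above all 8 neonatal arrays for 6 of 41 genes, against 7.16% of all genes: Col2a1, Lum, Mfap2, Cd248, Igfbp4 and Serpinh1. Of the genes that differed most between the embryonic ages, Cxcl14 was higher in neonatal cortex, as above. Twist2 read 173 to 194 in neonatal cortex, and its differences from 15.5 dpc were 0.12 ± 0.157 in cortex and -0.07 ± 0.157 in cerebellum. Smoc2 stood at -0.11 ± 0.343 in cortex and -0.17 ± 0.343 in cerebellum, with 95% intervals for both genes that include 0. Postn had further negative differences of -0.73 (95% interval -1.25 to -0.21) and -0.84 (-1.36 to -0.32). It missed the threshold in limma's fit without a block (adjusted p = 0.0934 and 0.0598) and was called lower in both with the neonatal replicate block (adjusted p = 0.00222 and 0.000913).

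Neonatal arrays split by replicate number, and the number of genes called moved with it. When that number entered the fit as a block on neonatal arrays, 17 genes were called in cortex, 12 lower (against 19.7% of all probe sets tested) and 5 higher (against 18.0%). In cerebellum 20 were called lower (against 19.6%) and Sparc higher (against 16.2%). Among single arrays, leaving out 15.5 dpc MatDp7 replicate 1 or PatDp7 replicate 2 left no call in cortex, and the lowest count in cerebellum was 2, without 15.5 dpc PatDp7 replicate 2. Other omissions that moved a count by over 1.5 times gave 2 without either cortex MatDp7 array and without 15.5 dpc PatDp7 replicate 1, and 3 without cortex PatDp7 replicate 1 or 15.5 dpc MatDp7 replicate 2, for cortex. For cerebellum they gave 11 without its PatDp7 replicate 2 array and 3 without any of its other 3 arrays, 15.5 dpc MatDp7 replicate 2 or 15.5 dpc PatDp7 replicate 1. The share of all probe sets called is not given for these omissions.

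Sparc shows the split plainly. Its brighter probe set read 17249, 17636, 20641 and 17824 on the neonatal replicate 1 arrays and 3669, 3966, 3740 and 4772 on the replicate 2 arrays, a mean difference of 2.17 on the log2 scale. The other Sparc probe set split the opposite way, with 813, 687, 549 and 458 on replicate 1 and 3199, 3106, 3118 and 4177 on replicate 2. The split thus belongs to each probe set and gives no level of Sparc. The difference of the brighter probe set from 15.5 dpc (0.87 ± 0.737 in cortex and 1.01 ± 0.737 in cerebellum) turns to -0.22 and -0.07 without the replicate 1 arrays. It turns to -0.17 and -0.18 with the mean of both probe sets. Over the list, 12 of 41 genes (29.3%) lay to 1 side in replicate 1 in all 4 neonatal groups, 5 higher and 7 lower, against 54.8% of all probe sets tested.

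Col4a1 and Col4a2 encode the chains of 1 collagen IV molecule and lie head to head on chromosome 8, with annotated starts 21 bases apart. On these arrays they split in opposite ways. Col4a1 read 3089, 2641, 2444 and 1593 on the neonatal replicate 1 arrays and 1338, 816, 1254 and 668 on replicate 2, higher by 1.23 on the log2 scale. Col4a2 read 552, 551, 535 and 338 on replicate 1 and 1023, 650, 1009 and 534 on replicate 2, a difference of -0.62. Nid1, their basement membrane partner, differed by -1.14. Each had the same sign in all 4 neonatal groups. A second Col4a1 probe set was higher on replicate 1 in 3 of the 4 groups and lower in MatDp7 cerebellum (1001 against 1114). A second Nid1 probe set was lower on replicate 1 except in PatDp7 cerebellum, where it was higher (399 against 365). At 15.5 dpc, replicate 1 minus replicate 2 was -0.68 and -0.65 for Col4a1 and -0.99 and -0.45 for Col4a2 in MatDp7 and PatDp7.

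**Figure D4:**
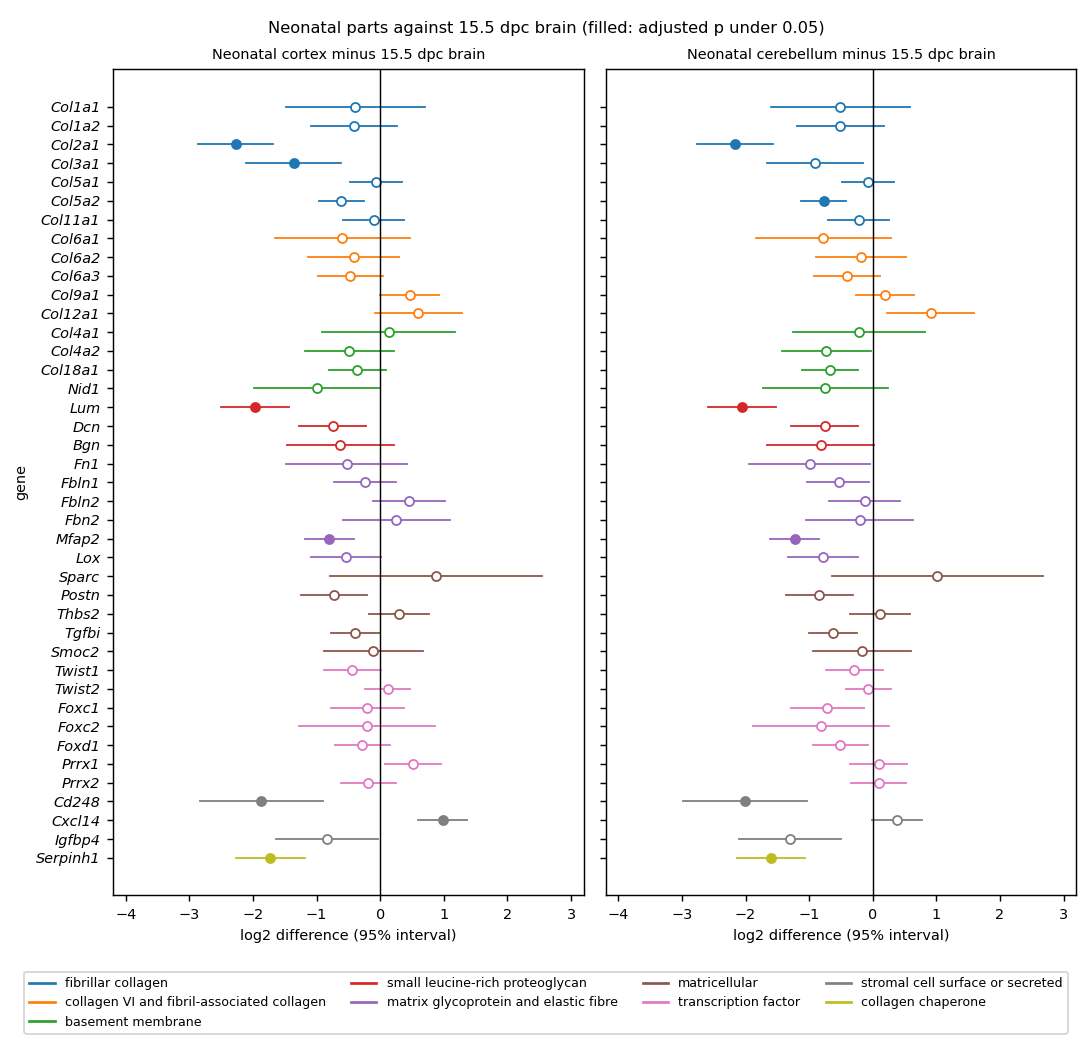
Points are log2 differences of 41 genes with 95% intervals from limma, neonatal cortex (left) and neonatal cerebellum (right) minus 15.5 dpc brain, coloured by role and filled where the adjusted p was under 0.05. Col2a1, Lum, Mfap2, Cd248 and Serpinh1 are filled and left of 0 on both sides, and Cxcl14 is filled and right of 0 in cortex.

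Neonatal cortex and cerebellum did not differ by a called gene. Limma called 0 of the 36 genes, against 0.368% of all probe sets tested, and 3 had an unadjusted p under 0.05. These were Cxcl14 (0.60 ± 0.174, adjusted p = 0.356), Mfap2 (0.42 ± 0.172, adjusted p = 0.628) and Fbln2 (0.58 ± 0.247, adjusted p = 0.654), all higher in cortex. Cxcl14 read 325 to 464 in cortex and 198 to 282 in cerebellum, with no overlap, and Mfap2 1386 to 1491 against 868 to 1195, also with none. The other Cxcl14 probe set stood at -0.13, lower in cortex. Fbln2 read 606, 316, 626 and 393 against 334, 310, 355 and 204, which overlap. The median over 41 genes was 0.18, against 0.05 over all probe sets. By sign 31 of 41 were higher in cortex and 10 lower, while 40.6% of all probe sets were lower. That direction rests on the replicate 1 arrays: without those 4 arrays the median was -0.09, with 26 of 41 lower in cortex, and without the 4 neonatal replicate 2 arrays it was 0.40. Without cerebellum PatDp7 replicate 1 alone it was 0.05, with 18 of 41 lower, and without cortex PatDp7 replicate 1 it was 0.11. With the replicate block 0 were called, with 7 of 36 at an unadjusted p under 0.05, a count with no share of all probe sets beside it.

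The study's main question, the effect of which parent gave the duplicated segment, was put to the same genes. No gene of the list was called between PatDp7 and MatDp7 averaged over the 3 replicated tissues, against 0.133% of all probe sets tested, and none reached an unadjusted p of 0.05 in limma. With the neonatal replicate block there was still no call, and 5 of the 36 genes tested had an unadjusted p under 0.05. Within cerebellum 13 of 36 did with the block and 1 without it, again with no call. The share of all probe sets at that unadjusted p is not given, so these counts are not set against a background. The widest difference was in Col1a1, at -0.81 ± 0.395 with a 95% interval of -1.70 to 0.08. Col1a1 read 2214 and 715 in MatDp7 cortex and 1415 and 293 in PatDp7 cortex, 1998 and 965 against 463 and 538 in cerebellum, and 1174 and 1420 against 1034 and 1271 at 15.5 dpc. The duplications overlapped in cortex and at 15.5 dpc and did not in cerebellum. Col1a2 stood at -0.52 ± 0.246 (-1.08 to 0.04), Col5a2 at -0.25 ± 0.129 (-0.54 to 0.04) and Prrx1 at 0.33 ± 0.163 (-0.04 to 0.70). The Col1a1 value rests on 1 of its 2 probe sets, and the other, dimmer one stood at -0.05.

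A few of these genes lie on the chromosomes that carry the duplications, although the labels do not give the ends of the segments. Serpinh1 is on chromosome 7 and read -0.37 ± 0.195 (95% interval -0.81 to 0.07). Fbln1 and Col2a1 are on chromosome 15. Fbln1 read -0.14 ± 0.176 (-0.54 to 0.25), and none of the 3 was called.

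Small shifts of the whole list differed in sign between tissues. In neonatal cortex 30 of 41 genes were lower in PatDp7, against 42.8% of all probe sets, with a median of -0.13 (0.05 over all probe sets). In cerebellum 34 of 41 were lower, against 53.6%, with a median of -0.44 (-0.02 over all). At 15.5 dpc 4 of 41 were lower, against 45.9%, with a median of 0.19 (0.02 over all). These medians moved with single arrays. Without the PatDp7 replicate 1 array of the cerebellum, low in Ptgds as well, the cerebellum median was -0.17 and the median of the mean over tissues moved from -0.11 to -0.03. Over all omissions of 1 array that last median ran from -0.19 to -0.03. Without cerebellum MatDp7 replicate 2 the cerebellum median was -0.26. Without 15.5 dpc PatDp7 replicate 2 the 15.5 dpc median was 0.02, without MatDp7 replicate 1 it was 0.06, and without PatDp7 replicate 1 it was 0.34 (2 of 41 lower). Without cortex PatDp7 replicate 2 the cortex median was -0.01, without MatDp7 replicate 1 it was -0.08, and without MatDp7 replicate 2 it was -0.20. limma's F-test for a parental difference that varies between tissues called none of the 36 genes. None reached an unadjusted p of 0.05, and 5 did with the replicate block. At 13.5 dpc, with 1 array per duplication, there is no test, and the paired values lay close: Col3a1 read 8625 in MatDp7 and 9311 in PatDp7, Lum 4544 and 4682, and Fbn2, farther apart, 441 and 794.

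**Figure D5:**
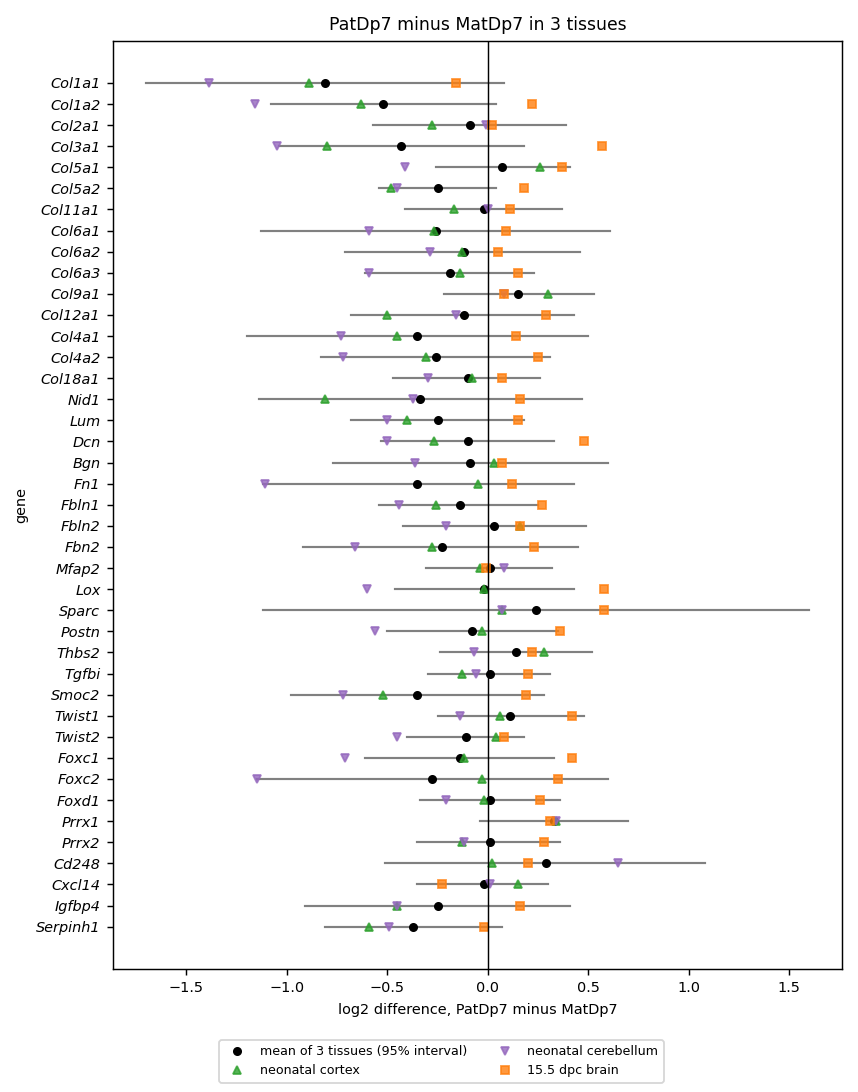
For each of 41 genes, the black point is the log2 difference PatDp7 minus MatDp7 averaged over 3 tissues with its 95% interval from limma, and coloured symbols are the differences in neonatal cortex, neonatal cerebellum and 15.5 dpc brain. Every interval includes 0, and the cerebellum symbols lie mostly left of 0 (34 of 41) while those of 15.5 dpc lie mostly right (37 of 41).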

How the data were processed

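The values are linear signal intensities that the authors deposited for 14 Affymetrix 430A arrays, and MAS5 is the tool in the submitters' processing notes, its version being not given in the sources used here. Every array's 2% trimmed mean lay between 500.13 and 500.15, so no scaling was added. The precision is limited by the number of arrays.

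The analysis used log2(intensity + 52.0273), where the constant is the 20th percentile of the whole table. Of 22626 probe sets that are not controls, the 13576 with a mean at or over the 40th percentile were tested. limma 3.58.1 in R 4.3.3 fitted 1 mean for each of 8 groups with an intensity trend, with 6 residual and 3.15 prior degrees of freedom. Adjusted p-values are Benjamini-Hochberg over all probe sets tested, and genes under 0.05 were called. Counts at an unadjusted p under 0.05 are given without a share over all probe sets. Errors are SE. Genes under the filter have values from the fit on all probe sets. A difference is the first group named minus the second, averaged over duplications.

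The members and the gene lists were chosen with earlier results of these data known. All 42 genes are named by that list, with values for those called. Each other list gives counts and at most the 2 genes with the smallest p. Any further gene named beside them was chosen after its values were seen. Gene names were updated through the GRCm38.p6 gene table.

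Same-numbered samples were checked for shared deviations from group means. The correlation was 0.710 to 0.816 between neonatal groups (6 pairs) and -0.0922 to 0.264 elsewhere (9 pairs). Neonatal arrays of the same number thus deviated together, while the other pairs showed little of this. The main fit has no block, so this shared deviation stays in its residual spread, which all comparisons use. For Sparc in cortex minus cerebellum the SE was 0.737 in that fit and 0.141 with the neonatal replicate block. A gene not called in the main fit may therefore be called with the block. What the numbers stand for was not tested. Counts with a neonatal replicate block stand beside the counts it moves. Adjusted p-values of single genes with that block are given only for Postn. Alternatives covered the added constant, filter, scaling, probe set, variance trend, block and arrays left out. Figures used Python 3.11.15 and matplotlib 3.10.9.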

Additional observations from a re-analysis of the deposited data

Results flagged for a closer look

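In 5 of 123 sets of 4 arrays (41 genes in 3 tissues), 1 array lay far from the others, with a gap over the range above Dixon's 95% critical value; chance alone flags about 1 set in 20. Foxc2 read 17.2 on cerebellum PatDp7 replicate 1, against 299 to 331 on the other 3 cerebellum arrays (0.949 of the range). Smoc2 read 33.1 on cortex PatDp7 replicate 1, against 127 to 151 (0.856), and 83.7 on 15.5 dpc MatDp7 replicate 2, against 126 to 134 (0.858). Cxcl14 read 221 on the same 15.5 dpc array, against 150 to 159 (0.857). Col5a1 read 511 on cortex PatDp7 replicate 1, against 332 to 357 (0.834). The 15.5 dpc MatDp7 replicate 2 array is the one with an actin 3′ to 5′ ratio of 1.45, and its part in these values was not tested.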

How the results depend on the processing

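The count of genes lower at 15.5 than at 13.5 dpc (20) was 31 with the replicate block for the neonatal arrays. It was 8 to 23 with 1 array of 15.5 dpc or neonatal tissue left out. Without either 13.5 dpc array no count is given, and calls such as those of Lum and Smoc2 ended. No log2 difference between these ages changed sign under any alternative run. For cortex minus 15.5 dpc (6) the count was 11 with a replicate block for all arrays, 17 with the neonatal block, 19 without the 4 neonatal replicate 2 arrays, and 0 to 6 with 1 array left out. For cerebellum minus 15.5 dpc (5) it was 16, 21, 24 and 2 to 11 in the same order, and 8 with the mean of all probe sets of a gene. Cortex minus cerebellum gave 1 call without the 4 neonatal replicate 2 arrays and 0 otherwise. The parental counts stayed at 0 in all alternatives, the replicate block included. Apart from the neonatal block, whose shares stand in the results, these counts have no share of all probe sets under the same setting beside them. A count that moved therefore shows no change particular to these genes. Of the single-gene differences recomputed, that of Sparc changed sign: to -0.17 in cortex and -0.18 in cerebellum with the mean of its probe sets, and to -0.22 and -0.07 without the neonatal replicate 1 arrays. Of the list medians, cortex minus cerebellum turned from 0.18 to -0.09 without the neonatal replicate 1 arrays, and the parental median in cortex went from -0.13 to 0 without the replicate 2 arrays. The cause of these moves was not tested. The omissions of the neonatal replicate 1 or 2 arrays and of each 13.5 dpc array were chosen after seeing the data. The 15.5 minus 13.5 dpc comparison was not run without the 13.5 dpc arrays, since it needs them. Signal over background limits Twist1, Col2a1 and Cd248, whose later values lie near or under the added constant.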
